A study of Mus musculus with 6 samples.

Results

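The BCL2 family controls whether the outer mitochondrial membrane stays intact in a cell under stress. The genes described here are 10 of its members, and 9 of them had probe sets, 29 in all among the 45101 on the array. They were taken by name, as every probe set that the platform annotation assigns to exactly 1 of these genes. The pro-survival members were Bcl2, Bcl2l1 (the gene of BCL-XL) and Mcl1, with 15 probe sets, and the pro-death members were the effector Bak1 and the BH3-only genes Bcl2l11 (BIM), Bid, Bad, Bbc3 (PUMA) and Pmaip1 (NOXA), with 14. Bax was not analysed here because no probe set carried its name in the annotation used.

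In this family, pro-survival proteins hold the effectors in check. The BH3-only proteins sense damage, loss of growth factors or other stress, and either block the pro-survival proteins or activate the effectors directly. Active effectors form pores in the outer mitochondrial membrane, which releases cytochrome c and starts the caspase cascade. In the osteoclast lineage, M-CSF and RANKL are survival factors, and BIM and MCL1 are known regulators of osteoclast lifespan. Many of these proteins are also controlled after translation, which arrays do not measure.

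RAW264.7, a mouse monocyte-macrophage line that can form osteoclast-like cells, was grown for 24 hours at 137 mmol/l sodium (normal sodium, 3 arrays) or at 120 mmol/l sodium (low sodium, 3 arrays). Both media are given as 290 mOsm/l, the low-sodium medium being held there with mannitol. The labels name the cytokines M-CSF (10 ng/ml) and RANKL (30 ng/ml) without settling whether both media contained them, and differences are those between the media as labelled. The labels describe 4 biological replicates per group, of which 3 per group were analysed here, and since cultures of 1 line are compared, p-values measure the spread between these cultures only.

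Both arrays of replicate 3 differed from the rest in their technical controls. Bacillus transcripts spiked in to follow the labelling step had a mean log2 intensity of 8.27 to 8.77 on the arrays of replicates 1 and 2 and 7.02 to 7.13 on those of replicate 3, and the 3′ probe set of spiked dap exceeded its 5′ probe set by 0.96 to 1.06 and by 2.94 to 3.07. The same 3′ minus 5′ difference of the cells' own Gapdh was -0.36 to -0.26 and -0.25 to -0.22. All 8 macrophage markers were bright, that is, not below 5.87 in mean log2 intensity, the median over the array. Among them Adgre1 rose, by 0.96, and the others did not pass. For osteoclast markers (7 of 8 bright, Calcr dim) the log2 of the summed intensity was 9.65 to 11.10 in normal and 12.60 to 12.87 in low sodium. Of these 8 osteoclast markers, 5 rose, 0 fell and 3 did not pass, with Oscar at -0.17. Over all genes 3.09% rose and 2.92% fell. Without Atp6v0d2, left out after its values were seen, the log2 of the summed intensity was 9.35 to 10.86 and 10.36 to 12.23. These ranges overlapped, because low-sodium replicate 3 had 10.36. The part of these markers in the differences below was not tested. Bright markers of T cells (1 of 5), B cells (1 of 4), fibroblasts (1 of 5) and epithelial cells (2 of 4) were few. Values are therefore given for each replicate number and from 2 limma fits. The planned fit compared low with normal sodium without a batch term, and the batch-term fit, taken up with earlier results of these arrays in view, added a term for replicate 3 and a trended eBayes prior. The words rose and fell refer to an adjusted p under 0.05 in the batch-term fit.

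Bcl2l1, Mcl1 and Bcl2l11 are the members with a probe set that rose, and the sequences at their transcription starts are shown for that reason. RefSeq windows of assembly GRCm38.p6, from 250 bases before to 50 after a start, were read for 8 of the 9 measured members. These were 14 windows, and none of Pmaip1 was read. The most upstream window of each of the 3 genes is printed. Capitals mark matches, on either strand, to 5 motifs: GTAAACA (FOXO), TGANTCA (AP-1), CACGTG (E-box), TGACG (CREB family) and TTCNNNGAA (STAT).
Bcl2l1, chr2:152831679-152831978, minus strand: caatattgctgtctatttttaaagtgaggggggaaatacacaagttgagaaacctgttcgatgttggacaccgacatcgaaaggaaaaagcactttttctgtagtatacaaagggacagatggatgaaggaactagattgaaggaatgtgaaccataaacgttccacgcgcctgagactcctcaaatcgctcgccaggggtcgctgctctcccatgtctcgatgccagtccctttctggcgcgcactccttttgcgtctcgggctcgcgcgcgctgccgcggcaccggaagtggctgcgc
Mcl1, chr3:95658471-95658770, plus strand: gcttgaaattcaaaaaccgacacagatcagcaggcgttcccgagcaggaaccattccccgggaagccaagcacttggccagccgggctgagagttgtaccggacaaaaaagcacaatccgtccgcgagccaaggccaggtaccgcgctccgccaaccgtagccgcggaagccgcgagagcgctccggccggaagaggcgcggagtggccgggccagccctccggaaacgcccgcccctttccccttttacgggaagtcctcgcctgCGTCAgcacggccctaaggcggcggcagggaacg
Bcl2l11, chr2:128125788-128126087, plus strand: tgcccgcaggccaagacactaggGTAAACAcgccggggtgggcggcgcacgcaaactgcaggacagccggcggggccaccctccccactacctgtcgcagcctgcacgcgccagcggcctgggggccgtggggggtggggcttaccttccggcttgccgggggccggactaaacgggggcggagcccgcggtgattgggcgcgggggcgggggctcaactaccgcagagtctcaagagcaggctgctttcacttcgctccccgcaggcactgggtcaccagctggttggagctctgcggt
The Bcl2l11 window held GTAAACA at position -227 from the start, and 3.65% of 32851 windows held it. The Mcl1 window held TGACG on the other strand at position 17, a motif present in 20.8% of windows. None of the 5 motifs was found in any of the 3 Bcl2l1 windows, and the second Bcl2l11 window had none either. The AP-1, E-box and STAT motifs occurred in 7.81%, 7.15% and 8.30% of all windows. Among members that did not rise, the FOXO, CREB family and E-box motifs each occurred in 1 of 3 windows of Bbc3, and the CREB family motif in the window of Bcl2. A match is a description of these letters and no evidence of binding.

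Across the family, the pro-survival gene Bcl2l1 rose in low sodium by most of its probe sets. The pro-survival gene Mcl1 and the BH3-only gene Bcl2l11 rose by a minority of theirs, and no member fell. The brightest Mcl1 probe set did not pass and was lower in low sodium in replicate 3. In the planned fit 0 of 29 probe sets passed, as did 0% of all 45037 probe sets tested, and 3 of the 29 had an unadjusted p under 0.05, against 6.37% of all. In the batch-term fit 6 of 29 rose and 0 fell. Of all probe sets 4.09% passed (2.07% rose and 2.01% fell), and of bright ones, to which 27 of the 29 belong, 8.03% passed (4.09% rose and 3.94% fell). The arrays of the media did not overlap in 8 member probe sets, 7 higher and 1 lower in low sodium, against 6.97% and 7.88% of all probe sets and 9.55% and 11.4% of bright ones. In 13 the difference was positive in all 3 replicate numbers and in 1 it was negative in all 3, against 17.4% and 18.7% of all probe sets and 21.7% and 25% of bright ones. The 6 were 3 of 4 probe sets of Bcl2l1, 2 of 6 of Mcl1 and 1 of 5 of Bcl2l11. Probe sets of 1 gene measure the same transcripts and are not independent. The count depended on single arrays, since it was 2 without replicate 1 of either medium, 1 without replicate 2 of either medium, and 13 without replicate 3 of either medium, and the 1 that stayed in all of these was Bcl2l1 1420888_at. With the batch term and a constant prior 0 of 29 passed (9 at an unadjusted p under 0.05), and with median centring in the batch-term fit 3 did.

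**Figure D1:**
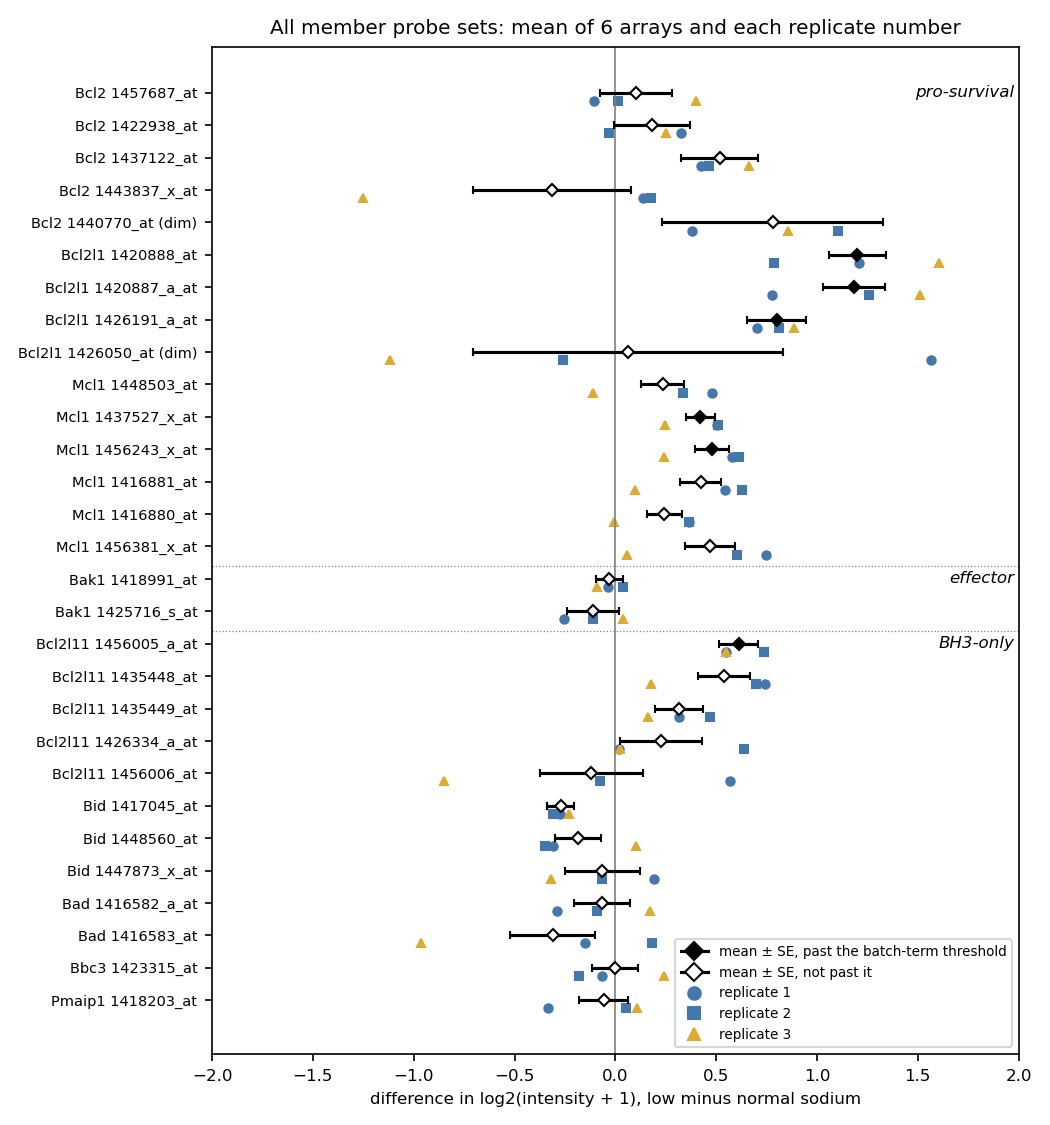
Difference in log2(intensity + 1), low minus normal sodium, of all 29 member probe sets, by role. Diamonds are means over 3 against 3 arrays with the SE of the batch-term fit, filled where the adjusted p was under 0.05, and small symbols are the difference within each replicate number; all 6 filled diamonds lie to the right of 0.

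Bcl2l1 encodes BCL-XL, which guards the outer mitochondrial membrane and binds BIM, BAD and BAK. Its probe set 1420888_at read a log2 intensity of 10.42, 10.60 and 9.16 in normal sodium and 11.63, 11.39 and 10.77 in low sodium, in the order of the replicate numbers. All 3 low-sodium arrays lay above all 3 normal-sodium arrays, and replicate 3 was the lowest in both media. The gene rose 2.30-fold by this probe set, a log2 difference of 1.20 ± 0.14 (SE, n = 3 against 3; batch-term adjusted p = 0.00531, planned limma adjusted p = 0.778), with 1.00 in replicates 1 and 2 and 1.60 in replicate 3. It was the member probe set that kept its batch-term call without any 1 of the 6 arrays, at adjusted p up to 0.0383. Without either replicate 3 array its difference was that of replicates 1 and 2 alone, 1.00.

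Of the other Bcl2l1 probe sets, 1420887_a_at read 8.96, 8.65 and 7.55 in normal and 9.74, 9.91 and 9.06 in low sodium, without overlap. It rose by 1.18 ± 0.15 (adjusted p = 0.00723 in limma's batch-term fit). Probe set 1426191_a_at read 7.96, 7.80 and 7.23 in normal and 8.66, 8.61 and 8.11 in low sodium, again without overlap, and rose by 0.80 ± 0.15 (limma adjusted p = 0.0251). The first lost its call without replicate 2 of either medium (adjusted p up to 0.0587) and the other without any 1 of the 4 arrays of replicates 1 and 2 (up to 0.132), with median centring (0.0561) and with the replicate number as a block and a trended prior (0.0863). The gene's remaining probe set, 1426050_at, was dim in both media, at 3.37 ± 0.60 and 3.44 ± 1.90 (SD, n = 3), so its difference of 0.06 cannot be read as a level.

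Mcl1 encodes a pro-survival protein with a short half-life that binds BIM, NOXA and BAK. All 6 of its probe sets were bright and higher in low sodium on average, by 0.23 to 0.48, and in 4 of them the groups did not overlap. Probe set 1456243_x_at read 12.98, 13.01 and 13.28 in normal and 13.56, 13.62 and 13.51 in low sodium. Every low-sodium array was above every normal-sodium array, with replicate 3 of normal sodium the nearest. It rose 1.39-fold, by 0.48 ± 0.08 (batch-term adjusted p = 0.0229, planned limma adjusted p = 0.783). Probe set 1437527_x_at rose 1.34-fold, by 0.42 ± 0.07 (limma batch-term adjusted p = 0.0202), from 13.26, 13.25 and 13.43 to 13.77, 13.76 and 13.68. Both carry the suffix x, with which the manufacturer marks probes that may also bind other transcripts. They lost their calls without any 1 of the 4 arrays of replicates 1 and 2 (adjusted p up to 0.134 and 0.132). No Mcl1 probe set passed with median centring (0.0903 and 0.132 for these) or with the replicate number as a block and a trended prior (0.0778 and 0.0806).

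The size of the Mcl1 difference went with the replicate number. In replicates 1 and 2 the 6 probe sets differed by 0.37 to 0.67 on average, whereas in replicate 3 they differed by -0.11 to 0.25. The brightest, 1448503_at, read 13.39, 13.47 and 13.45 in normal and 13.87, 13.81 and 13.34 in low sodium, so that low-sodium replicate 3 was the lowest of all 6 arrays and the difference of 0.23 ± 0.11 did not pass. Whether the response differed between replicate 3 and the others was not tested, since replicate 3 holds 1 array per medium. The genes whose level followed this Mcl1 probe set most closely over the 6 arrays, among 10411 bright genes, were Mea1 (Pearson r = 0.99), Dctn1 (0.99) and Ascc2 (0.99). That is a description over 6 arrays of 2 media, with replicate 3 set apart in its technical controls.

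Bcl2, the founding pro-survival member, had 5 probe sets and none passed in either fit. The brightest, 1457687_at, read 8.61, 8.94 and 8.13 in normal and 8.51, 8.95 and 8.53 in low sodium, so the groups overlapped, and the arrays differed most in replicate 3. Its difference was 0.10 ± 0.18 (SE of the batch-term fit, 95% interval -0.31 to 0.52). Probe set 1437122_at was higher in low sodium in each replicate number, by 0.42, 0.46 and 0.66, and did not pass (limma batch-term adjusted p = 0.213). Probe set 1443837_x_at differed by 0.16 in replicates 1 and 2 and by -1.25 in replicate 3, and 1440770_at was dim.

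**Figure D2:**
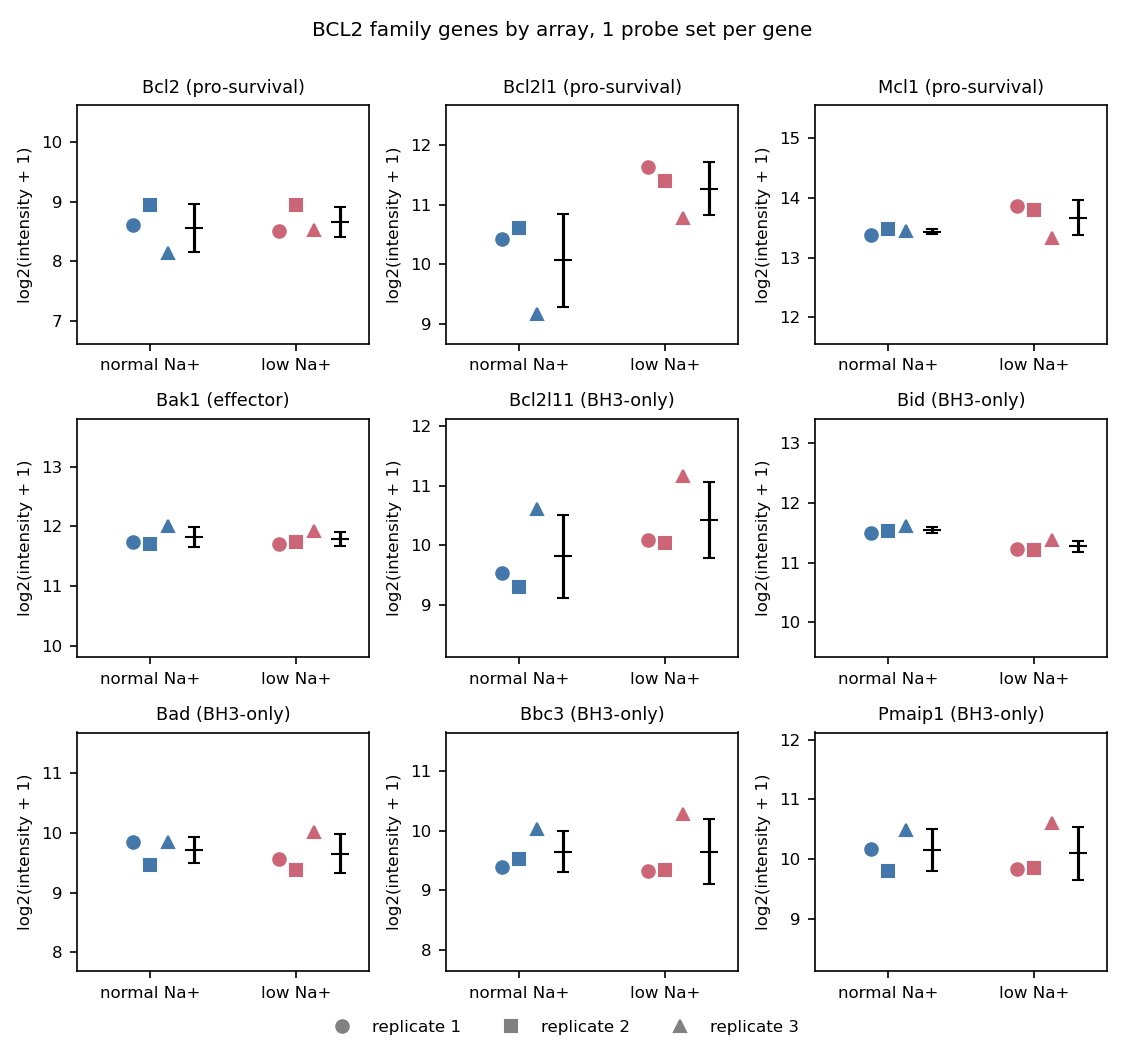
Log2(intensity + 1) on each array for the 9 measured members, each by its brightest probe set; symbols mark the replicate number, and black bars are the mean ± SD of 3 arrays. The vertical axes span the same range of log2 units but start at different levels, which are not comparable between genes; Bcl2l1 and Bid are the panels in which the media do not overlap.

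Among the effectors, Bak1 encodes the pore-forming protein that sits in the mitochondrial membrane. Probe set 1418991_at read 11.74, 11.70 and 12.01 in normal and 11.71, 11.73 and 11.92 in low sodium. The groups overlapped almost fully, and the difference was -0.03 ± 0.07 with a 95% interval of -0.19 to 0.13 in the batch-term fit, so a change of the size seen for Bcl2l1 lay outside it. The other probe set, 1425716_s_at, differed by -0.11 ± 0.13.

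Bcl2l11 encodes BIM, a BH3-only protein that binds all pro-survival members. Probe set 1456005_a_at read 9.53, 9.30 and 10.60 in normal and 10.08, 10.04 and 11.15 in low sodium. The replicate 3 arrays were higher in both media, and the groups overlapped because normal-sodium replicate 3 lay above low-sodium replicates 1 and 2. Within each replicate number low sodium was higher, by 0.55, 0.74 and 0.55. In the batch-term fit it rose 1.53-fold, by 0.61 ± 0.10 (adjusted p = 0.0147, planned limma adjusted p = 0.885), and it lost the call without any 1 of the 4 arrays of replicates 1 and 2 (adjusted p up to 0.0947).

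The remaining Bcl2l11 probe sets were less uniform. Probe set 1435448_at differed by 0.54 ± 0.13 (limma batch-term adjusted p = 0.0627), 1435449_at by 0.32 ± 0.12 and 1426334_a_at by 0.23 ± 0.20, and none of them passed. Probe set 1456006_at differed by 0.25 in replicates 1 and 2 and by -0.85 in replicate 3. Thus 4 of 5 were higher in low sodium in all 3 replicate numbers, against 17.4% of all probe sets and 21.7% of bright ones. All 5 are bright, and they measure 1 gene. Of the 4, 1426334_a_at differed by only 0.02 in replicates 1 and 3, with 0.64 in replicate 2.

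Bid encodes the BH3-only protein that caspase-8 cleaves to link death receptors to mitochondria, and it was the member with the lowest p among those that were lower in low sodium. Its brightest probe set, 1417045_at, read 11.50, 11.53 and 11.61 in normal and 11.23, 11.22 and 11.38 in low sodium. All low-sodium arrays lay below all normal-sodium arrays, which 7.88% of all probe sets and 11.4% of bright ones showed. The difference of -0.27 ± 0.07 did not pass (batch-term adjusted p = 0.0758, planned limma adjusted p = 0.870), and was -0.29 in replicates 1 and 2 and -0.23 in replicate 3. Probe set 1448560_at differed by -0.33 in replicates 1 and 2 and 0.10 in replicate 3, and 1447873_x_at by 0.06 and -0.32.

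Bad, whose product is held inactive by survival-factor kinases, differed by -0.07 ± 0.14 and -0.31 ± 0.21 in its 2 probe sets. The latter, 1416583_at, had -0.15, 0.18 and -0.96 in the order of the replicate numbers and 0.015 in replicates 1 and 2 together, so its direction rested on replicate 3. Bbc3 and Pmaip1, both classical p53 targets, had 1 probe set each. Bbc3 read 9.39, 9.52 and 10.03 in normal and 9.32, 9.34 and 10.27 in low sodium, a batch-term interval of -0.26 to 0.26 for the difference. Pmaip1 read 10.16, 9.79 and 10.49 in normal and 9.83, 9.85 and 10.60 in low sodium, a difference of -0.06 ± 0.12. In both genes the replicate 3 arrays were the highest in either medium and the groups overlapped.

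Replicates 1 and 2 were also fitted alone, with the trended prior. There 13 of 29 member probe sets passed, 11 of them higher and 2 lower in low sodium, against 8.25% of all probe sets (4.15% higher and 4.1% lower). Those higher were 3 of Bcl2l1, all 6 of Mcl1 and 2 of Bcl2l11, and those lower were 2 of Bid. In replicate 3 the difference had the same sign for 3 of the 3 in Bcl2l1, 4 of the 6 in Mcl1, 2 of the 2 in Bcl2l11 and 1 of the 2 in Bid. No share among bright probe sets, to which 27 of the 29 belong, was counted for this fit. The share of all passing probe sets with the same sign in replicate 3 was not counted either. In the batch-term fit 8.03% of bright probe sets passed, against 4.09% of all.

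Pro-survival and pro-death members were then set side by side. Over all probe sets 2.07% rose in the batch-term fit, and 4.09% of bright ones. Of 15 pro-survival probe sets 5 rose, 10 did not pass and 0 fell, with a median difference of 0.42 (0.59 in replicates 1 and 2, 0.25 in replicate 3). Of 14 pro-death probe sets 1 rose, 13 did not pass and 0 fell, with a median of -0.06 (0.01 and 0.07). These counts and medians weigh genes by their probe sets, since Mcl1 had 6 of the 15 and Bcl2l11 5 of the 14. The pro-survival medians of 0.42, 0.59 and 0.25 were each the value of a Mcl1 probe set. The median over all probe sets was -0.02, 0.03 in replicates 1 and 2 and -0.11 in replicate 3.

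With 1 probe set per gene and each gene centred on its own mean, the median of the 3 pro-survival genes minus that of the 6 pro-death genes was -0.16, 0.11 and -0.77 in normal sodium and 0.47, 0.57 and -0.49 in low sodium. It was higher in low sodium within each replicate number, by 0.63, 0.46 and 0.28. The means were -0.27 ± 0.45 and 0.18 ± 0.58 (SD, n = 3), so the difference of 0.46 was smaller than the pooled SD between arrays of 1 medium, 0.52. Both replicate 3 arrays were low, and the groups overlapped because low-sodium replicate 3 lay below normal-sodium replicates 1 and 2. The pro-survival median differed by 0.48, 0.39 and 0.40, and the pro-death median by -0.15, -0.06 and 0.12. The gene at the pro-survival median was not the same on every array. By gene the differences were 1.21, 0.79 and 1.60 for Bcl2l1, 0.48, 0.33 and -0.11 for Mcl1, and -0.11, 0.01 and 0.40 for Bcl2, so no single gene differed by about 0.4 in all 3. Leaving out 1 array gave 0.17 without normal-sodium replicate 3, 0.20 and 0.24 without low-sodium replicates 1 and 2, 0.51 and 0.67 without normal-sodium replicates 1 and 2, and 0.78 without low-sodium replicate 3. As a score over chosen members it was given no test.

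**Figure D3:**
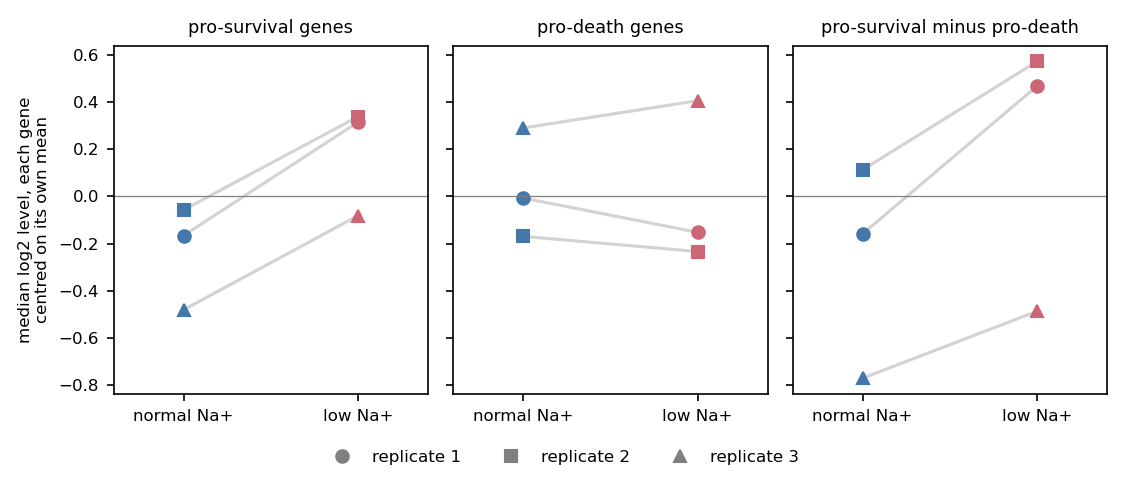
Median log2 level of the pro-survival genes, of the pro-death genes and their difference on each array, every gene centred on its own mean over the 6 arrays; grey lines join arrays of the same replicate number. The line rises from normal to low sodium in all 3 replicate numbers for the pro-survival genes and for the difference, while the pro-death lines go both ways, and the replicate 3 arrays sit low in the difference.

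The wider apoptosis pathway was read from 5 lists of 60 genes, of which 51 were measured, each by its brightest probe set. None passed the planned limma fit (0 of 51, and 2 of them had an unadjusted p under 0.05). In the batch-term fit 1 rose, 0 fell and 50 did not pass, whereas 6.01% of all genes passed, 3.09% rising and 2.92% falling. The median difference was -0.02 over the 51 genes and -0.01 over all 18193 genes. The 1 that rose was Ddit3, the gene of the stress transcription factor CHOP, a known regulator of BIM and BCL2 transcription. It read 9.45, 9.33 and 8.30 in normal and 10.47, 10.43 and 11.38 in low sodium, without overlap. Its difference was 1.73 ± 0.35 (limma batch-term adjusted p = 0.0367), 1.06 in replicates 1 and 2 and 3.07 in replicate 3. Without replicate 1 or 2 of either medium it was not called (adjusted p up to 0.112), nor with median centring (0.0762), and the 1 other probe set of the gene, at 0.82, did not pass.

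Of 10 measured BCL2 relatives outside the 10 members 0 passed, with a median of 0.08. Bcl2l2, which encodes the pro-survival protein BCL-W, differed by 0.23 ± 0.10, Bcl2l13 by -0.31 ± 0.11 and the BH3-only gene Bmf by -0.45 ± 0.24, while Bcl2l14 was dim. The other bright Bcl2l2 probe sets differed by -0.32 and 0.56 and did not pass. Of 9 apoptosome and caspase genes 0 passed, with a median of -0.16. Dffb, the gene of the caspase-activated DNase, was lower in low sodium in each replicate number and had a difference of -0.79 ± 0.18 (limma batch-term adjusted p = 0.0560), and Casp2, an initiator caspase gene, had a difference of -0.52 ± 0.12 (0.0516). Both passed when dim probe sets were left out of limma's batch-term fit (adjusted p = 0.0253 and 0.0375), and Casp2 also with quantile normalisation (0.0483). Casp6 differed by 0.28 and Casp8 by 0.15.

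Of 10 genes for inhibitors of apoptosis and mitochondrial factors 0 passed, with a median of 0.05. Birc3 and Birc2, the genes of the ubiquitin ligases cIAP2 and cIAP1, differed by 0.31 ± 0.09 and 0.27 ± 0.10, and Endog and Aifm1, of nuclease and flavoprotein factors released from mitochondria, by -0.46 ± 0.14 and -0.27 ± 0.08. Of 8 death receptor genes 0 passed, with a median of 0.02. Cflar, the caspase-8 inhibitor gene, differed by 0.50 ± 0.15, Tnfrsf10b by 0.58 ± 0.39 and Fas by 0.39 ± 0.45, and Tnfsf10 was dim. Replicate 3 carried much of this, since in replicates 1 and 2 Cflar differed by 0.27 and Tnfrsf10b by 0.10, against 0.98 and 1.53 in replicate 3. Fas had -0.88, 1.41 and 0.63 in the order of the replicate numbers. Of 14 genes that regulate BCL2 proteins 1 rose and 0 fell, with a median of -0.03. Beside Ddit3, the p53 antagonist gene Mdm2 differed by 0.59 ± 0.15 (limma batch-term adjusted p = 0.0706), and its other bright probe set passed (0.0112). Pim2, a kinase that phosphorylates BAD, differed by -0.57 ± 0.16, and Huwe1, a ubiquitin ligase of MCL1, by -0.36 ± 0.11. The other Huwe1 probe sets differed by only -0.11 to 0.04, and none passed. Of the named genes in these lists, Mdm2, Huwe1, Endog and Casp2 were also nearer to 0 in replicates 1 and 2, at 0.34, -0.21, -0.27 and -0.34. Others that were nearer to 0 there included Pim2, Birc2, Birc3, Bcl2l2 and Bmf. Bcl2l13, Aifm1, Casp6 and Casp8 were farther from 0 there, at -0.41, -0.34, 0.36 and 0.20.

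**Figure D4:**
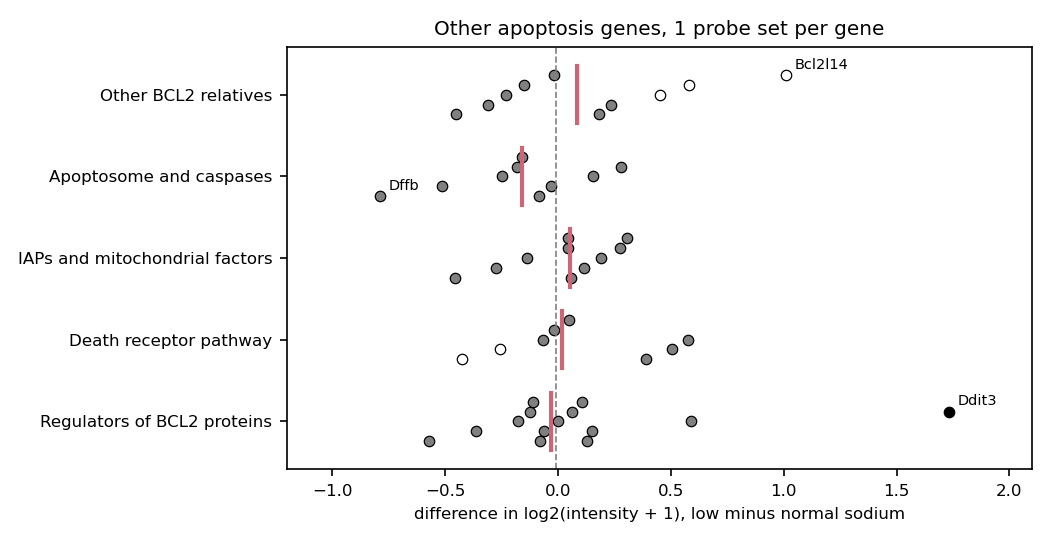
Difference in log2(intensity + 1), low minus normal sodium, of the 51 other apoptosis genes by list; the black point passed the batch-term fit, white points are dim, red bars are list medians and the dashed line is the median of all genes at -0.01. Ddit3 at 1.73 is the single black point.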

How the data were processed

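RNA of 6 cultures was measured on Affymetrix mouse arrays after biotin labelling. The deposited values were linear intensities per probe set, made by the authors with Partek, per the submitters' processing notes. How probes were summarised is not stated there. The mean between percentiles 2 and 98 was 500.003 on each array.

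Log2 values were taken of intensity plus 1, and 64 manufacturer controls were left out. limma 3.58.1 in R 4.3.3 was fitted to 45037 probe sets (two-sided, Benjamini-Hochberg, adjusted p under 0.05): the planned fit with medium alone and a constant prior, and the batch-term fit with a term for replicate 3 and a trended prior. Each p is adjusted over all probe sets. The number of arrays limits the precision. Symbols came from the platform annotation, updated through RefSeq; 34945 probe sets carried 1 gene, 932 several and 9160 none there. The named-gene rule took all member probe sets and, of each other list, the genes past the planned fit and the 4 with the smallest p in the batch-term fit. Members, lists and marker lists were chosen with earlier results of these data known. Scripts were tested on simulated data. Alternatives covered the block, prior, pseudocount, scaling, dim probe sets and left-out arrays.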

Additional observations from a re-analysis of the deposited data

How the results depend on the processing

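The planned count of 0 member probe sets stayed 0 under the alternatives to the planned fit, leaving out each array among them, except 6 in the batch-term fit and 13 when replicates 1 and 2 were fitted by themselves with the trended prior. Over all probe sets the count of 0 became 1840 and 3714 in those fits, 33 with a trended prior alone, 2 without dim probe sets and 1 with a pseudocount of 16, and over the other apoptosis genes 0 became 1 and 10. With the replicate number as a block the planned limma fit called 0 probe sets (8.51% of all, and 6 members, at an unadjusted p under 0.05). Same-numbered arrays deviated together at r = 0.08, 0.06 and 0.20 over all probe sets and 0.35, 0.33 and 0.51 over bright ones. Normal replicate 1 with low replicate 2, and normal 2 with low 1, had 0.32 and 0.35 over bright ones, close to the same-numbered ones, and the numbers were not taken as pairs. Chosen after seeing the data, other settings of the batch-term fit moved its 6 members to 3 with median centring, 3 with a replicate block and trended prior, 13 in replicates 1 and 2 alone and 1 to 13 without single arrays. Its 1 other gene became 3 without dim probe sets, 2 with quantile normalisation, 0 with median centring, 0 with the block, 10 in replicates 1 and 2 and 0 to 11 without single arrays. Without either replicate 3 array the batch-term fit took its difference from replicates 1 and 2 alone, so these settings are not separate checks. The pro-survival minus pro-death difference of 0.46 was 0.45 to 0.55 under other scalings, pseudocount and probe set choices. Some differences that passed no fit changed sign: in replicates 1 and 2 alone, Bcl2 1457687_at had -0.047, Bcl2 1443837_x_at 0.16, Bcl2l11 1456006_at 0.25, Bid 1447873_x_at 0.064 and Bad 1416583_at 0.015. Without single arrays the ranges of sign-changing differences were -0.11 to 0.29 for Bcl2 1457687_at, -0.046 to 0.38 for Bcl2 1422938_at, -0.70 to 0.36 for Bcl2 1443837_x_at, -0.90 to 1.00 for Bcl2l1 1426050_at, -0.096 to 0.065 for Bak1 1418991_at, -0.27 to 0.041 for Bak1 1425716_s_at, -0.073 to 0.52 for Bcl2l11 1426334_a_at, -0.33 to 0.13 for Bcl2l11 1456006_at, -0.36 to 0.36 for Bid 1447873_x_at, -0.25 to 0.069 for Bad 1416582_a_at, -0.32 to 0.19 for Bbc3 1423315_at, -0.31 to 0.11 for Pmaip1 1418203_at, -0.88 to 0.022 for Bmf 1454880_s_at and -0.80 to 0.15 for Tnfsf10 1459913_at. The cause of these shifts was not tested. Dim probe sets give no level, and 3 arrays per medium limit all values.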

Other observations

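Several members also differed between the replicate 3 arrays and the others. Averaged over both media, replicate 3 minus replicates 1 and 2 was -1.05 for Bcl2l1 1420888_at, -0.42 for Bcl2 1457687_at and -0.24 for Mcl1 1448503_at (0.00 to 0.10 for the 5 other Mcl1 probe sets), and 1.14 for Bcl2l11 1456005_a_at, 0.76 for Bbc3, 0.64 for Pmaip1, 0.36 for Bad 1416582_a_at, 0.24 for Bak1 1418991_at and 0.12 for Bid 1417045_at. Bak1 1425716_s_at, at -0.38, and Bid 1447873_x_at, at -1.08, went the other way from the brightest probe set of their gene. Bcl2l1 1420888_at was thus lower in replicate 3 and higher in low sodium, while Bcl2l11 1456005_a_at was higher in both. The shifts between replicate 3 and the others were not tested, and their source is not given in the labels, which name no batch.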
